A study of Mus musculus with 10 samples.

Results

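The genes described here are 9 macrophage core identity genes, Csf1r, Fcgr1, Trem2, Itgam, Adgre1, Ms4a7, Cd68, Mpeg1 and Gpnmb, in skin wounds of diabetic mice that received a miR-132 mimic or a control mimic. They were chosen by name, and each was read from the brightest array feature that the platform annotation assigns to that gene alone. Each had 1 such feature, and they stand among 30743 genes with a feature of this kind. All animals were males, 11 weeks old at the start, with the genotype db/db [BKS(D)-Leprdb/JOrlRj)] and the background C57Bl/6J. They carry a mutated leptin receptor gene in every cell and become obese and hyperglycaemic. After a week of single housing they received full-thickness dorsal wounds from a 4 mm punch. In the miR-132 group (5 mice) the edge of each wound was injected into the dermis at 4 points with 0.5 nmol miR-132 mimic, mixed with a delivery reagent to 100 µl, right after wounding. The control group (5 mice) had the same amount of control mimic. Total RNA of wound-edge biopsies taken at day 6 was measured on Affymetrix Clariom D arrays, 1 array per mouse. Each mouse had a wound on either side of the midline, and the labels do not say whether an array holds RNA of 1 or of both. The samples used here hold neither lean mice nor unwounded skin, so the values describe diabetic wounds only. A mimic is an artificial RNA made to do the work of the microRNA it copies.

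Macrophages enter wounds as blood monocytes, clear debris and bacteria, and later support closure. Their survival depends on the receptor kinase encoded by Csf1r, and they take up antibody-coated particles through Fc receptors, adhere and engulf through the integrin that contains the Itgam chain, and sense lipids through Trem2. In diabetic wounds macrophages are known to persist and to stay inflammatory for longer than in healthy ones. A biopsy is a mixture of cells, so fewer macrophages and less RNA per macrophage cannot be told apart in any value below.

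The sequence of the mature microRNA is shown because it defines the treatment. Its seed, bases 2 to 8, is in capitals, and it is written 5′ to 3′ as RefSeq holds it for build GRCm38.p6 (chr11:75173723-75173744, + strand). The labels do not say which arm the mimic copied, and the 3p arm is printed as the one usually meant by the name.
mmu-miR-132-3p: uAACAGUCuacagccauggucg

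Signals are deposited log2 values, so a difference of 1 is a doubling. Every one of the 9 genes lay above the level filter of 4.17, the median of all feature means, and 0 of their values reached the upper signal limit of 19.93. The 10 arrays spanned 4.41 to 5.03 between the 10th and 90th percentile of all features, with miR-132 replicates 2 and 5 the narrowest (4.41 and 4.63). Spike-in controls added at hybridisation averaged 10.57 to 10.98 on miR-132 arrays and 10.43 to 10.61 on control arrays.

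None of the 9 macrophage genes differed between miR-132 and control wounds beyond the spread between mice. With limma, 0 of 9 passed a Benjamini-Hochberg adjusted p of 0.05, against 0% of the 17635 genes tested, and 0 of 9 had an unadjusted p under 0.05, against 8.09% of all genes (2.47% higher and 5.61% lower with miR-132). In all 9 the groups overlapped, where 0.93% of all genes had groups that did not (0.284% higher and 0.646% lower). Averages were lower with miR-132 for 7 and higher for 2, with a median difference of -0.09 beside -0.02 over all genes tested. Of the 17635 genes tested, 9619 averaged lower and 8016 higher. The split of the 9 turned into 7 higher and 2 lower without control replicate 1 (median 0.02) and into 4 higher and 5 lower after a further quantile normalization (median -0.01). Over all genes at an unadjusted p under 0.05, 436 were higher and 990 lower, 612 and 576 after quantile normalization, and 160 and 1379 after centring each array on its median.

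**Figure D1:**
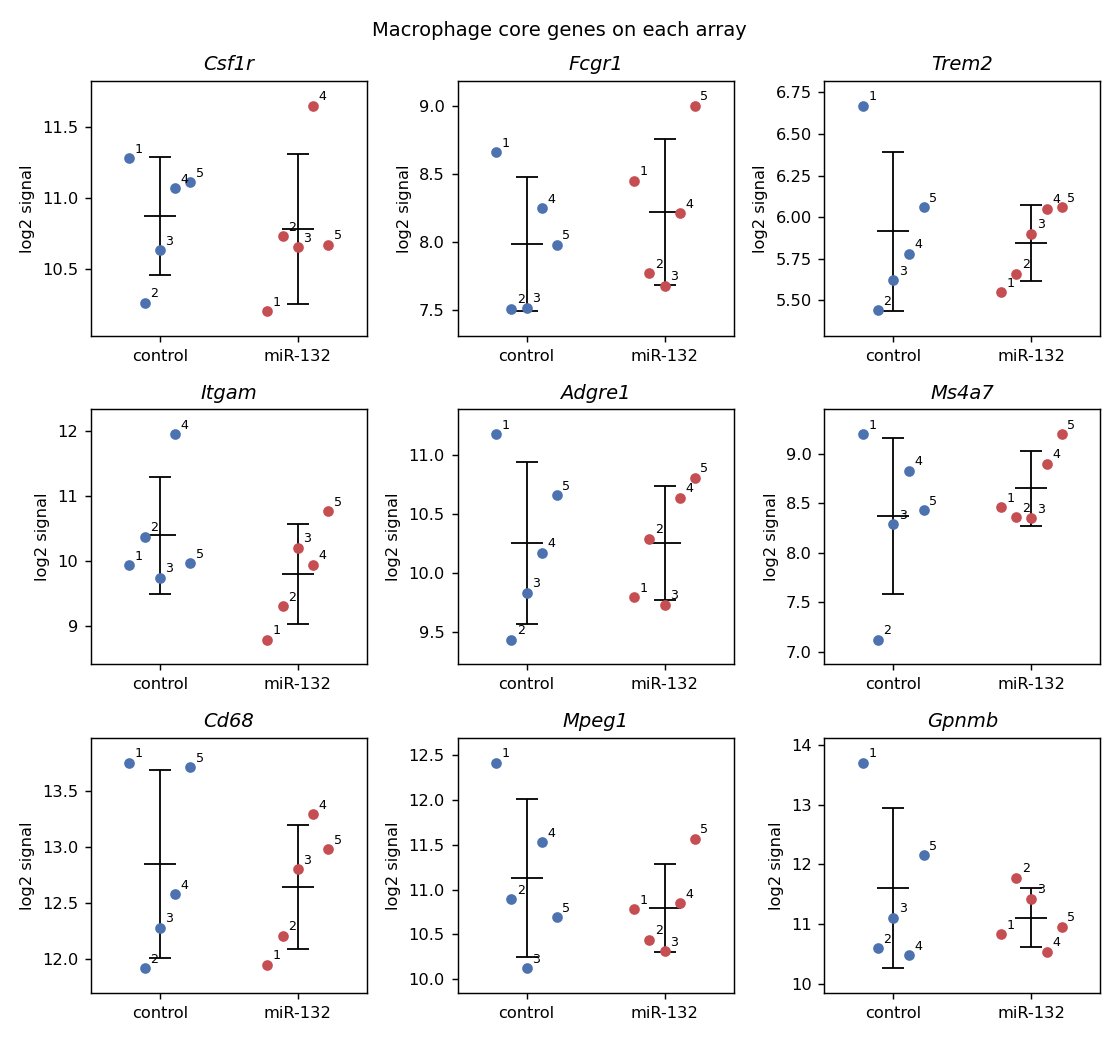
Log2 signal of each macrophage gene on the 10 arrays, 1 point per mouse numbered by replicate, with the mean and SD of each group of 5 in black. The y axes differ between panels. Control replicate 1 is the highest control for every gene but Itgam, whose highest control is replicate 4 at 11.95, and the groups overlap in every panel.

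Among the receptors, Csf1r encodes the receptor for the growth factors Csf1 and Il34. It measured 11.28, 10.26, 10.63, 11.07 and 11.11 on control replicates 1 to 5. On miR-132 replicates 1 to 5 it measured 10.20, 10.73, 10.65, 11.65 and 10.67. A miR-132 mouse (replicate 4) held the highest value and another (replicate 1) the lowest, so the miR-132 range contained the whole control range. The control mean was 10.87 ± 0.42 and the miR-132 mean 10.78 ± 0.53 (SD, n = 5 each), and the difference was -0.09 ± 0.29 (SE, limma's adjusted p of 0.955).

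Fcgr1 encodes the high-affinity receptor for IgG. Its control values were 8.66, 7.51, 7.52, 8.25 and 7.98, and its miR-132 values 8.45, 7.77, 7.68, 8.21 and 9.0, in replicate order. The highest value was miR-132 replicate 5, and controls 2 and 3 were the lowest of all 10 arrays. The control mean was 7.98 ± 0.49 and the miR-132 mean 8.22 ± 0.54 (SD, n = 5 each), a difference of 0.24 ± 0.30 (SE, limma's adjusted p of 0.852) that stayed above 0 in every fit with 1 array left out (0.04 to 0.41).

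Trem2 encodes a lipid-sensing receptor that signals through the adaptor Tyrobp. It measured 6.67, 5.44, 5.62, 5.78 and 6.06 in controls and 5.55, 5.66, 5.90, 6.05 and 6.06 with miR-132. The control values enclosed all 5 miR-132 values, from replicate 2 at the bottom to replicate 1 at the top. The means were 5.91 ± 0.48 and 5.84 ± 0.23 (SD, n = 5 each), with a difference of -0.07 ± 0.22 (SE, limma's adjusted p of 0.954) that turned to 0.12 without control replicate 1.

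Itgam, the alpha chain of an adhesion and complement-binding integrin carried by macrophages and neutrophils, had the largest average difference of the 9. Control replicates 1 to 5 measured 9.93, 10.37, 9.74, 11.95 and 9.96. The miR-132 replicates measured 8.78, 9.30, 10.20, 9.94 and 10.76. Control replicate 4 stood alone at the top, and miR-132 replicates 1 and 2 lay below every control. The means were 10.39 ± 0.90 and 9.80 ± 0.77 (SD, n = 5 each), 1.51-fold lower on average, with a log2 difference of -0.59 ± 0.49 (SE, 95% confidence interval -1.69 to 0.50, limma's adjusted p of 0.769). Without control replicate 4 the difference was -0.20, and with the hybridisation spike-ins as a covariate it was -1.09 ± 0.69 (SE, limma's adjusted p of 0.611).

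Neutrophil markers are given beside Itgam because neutrophils also carry it. Of 20 listed, 14 were tested, 13 averaged lower with miR-132 and 1 higher, and 6 lay below the level filter, among them Mpo, Elane, Ltf and Ngp. The mean log2 signal of the 14 ranged from 9.85 to 11.51 in controls, highest on replicate 4, and from 9.78 to 10.51 with miR-132. S100a8 and S100a9, the calgranulins that fill neutrophils, stood at the signal limit on 9 of 10 arrays. Both count among the 14, and the direction of their differences rests on the remaining array. Mmp9, a matrix protease of neutrophil granules, differed by -1.34 ± 0.53, Csf3r, the receptor for granulocyte growth factor, by -0.92 ± 0.50, and Clec4e, a receptor for microbial glycolipids, by -1.03 ± 0.57 (SE, limma's adjusted p of 0.596, 0.656 and 0.661). These genes were named for the smallest unadjusted p of their list, so they need not be typical of the 14. Csf3r and Clec4e were highest on control replicate 4 (9.97 and 10.38), and without it their differences were -0.49 and -0.60 and the median of the 14 went from -0.43 to -0.23. Without that array 12 of the 14 were still lower and 2 higher. Without control replicate 1 the differences of Csf3r and Clec4e were -1.20 and -1.50, and the median of the 14 was -0.79. The part of neutrophils in the Itgam values was not tested.

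Of the other surface genes, Adgre1 encodes the adhesion G protein-coupled receptor that is the classic antigen of mouse macrophages. It measured 11.18, 9.43, 9.83, 10.17 and 10.66 in controls and 9.79, 10.29, 9.73, 10.64 and 10.81 with miR-132. The control values again enclosed those of the miR-132 group. Both means were 10.25, with SDs of 0.69 in controls and 0.49 with miR-132 (n = 5 each). The difference was -0.00200 ± 0.35 (SE, 95% confidence interval -0.79 to 0.79, limma's adjusted p of 1).

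Ms4a7, a tetraspan membrane protein found mainly in macrophages, measured 9.20, 7.12, 8.29, 8.83 and 8.43 in controls and 8.46, 8.36, 8.35, 8.90 and 9.20 with miR-132. Control replicate 2 was far below the other 9 arrays. The means were 8.37 ± 0.79 and 8.65 ± 0.38 (SD, n = 5 each), a difference of 0.28 ± 0.36 (SE, limma's adjusted p of 0.854). Without control replicate 2 it was -0.03.

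Among the genes of lysosomes and phagosomes, Cd68 encodes a glycoprotein of late endosomes. Its control values were 13.75, 11.92, 12.28, 12.58 and 13.71, and its miR-132 values 11.95, 12.21, 12.80, 13.29 and 12.98. Controls 1 and 5 were the highest arrays and control 2 the lowest. The means were 12.85 ± 0.84 and 12.65 ± 0.55 (SD, n = 5 each), a difference of -0.20 ± 0.41 (SE, limma's adjusted p of 0.922) that was 0.02 without control replicate 1 and -0.63 with the hybridisation spike-ins as a covariate.

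Mpeg1 encodes a pore-forming protein that attacks engulfed bacteria. It measured 12.42, 10.89, 10.12, 11.53 and 10.69 in controls and 10.78, 10.44, 10.31, 10.85 and 11.57 with miR-132. Control replicate 1 exceeded the next highest array, miR-132 replicate 5. The means were 11.13 ± 0.88 and 10.79 ± 0.49 (SD, n = 5 each), and the difference of -0.34 ± 0.42 (SE, limma's adjusted p of 0.846) shrank to -0.02 without control replicate 1.

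Gpnmb encodes a transmembrane glycoprotein that lipid-loaded macrophages, osteoclasts and melanocytes make. It measured 13.70, 10.60, 11.11, 10.48 and 12.15 in controls and 10.83, 11.78, 11.43, 10.54 and 10.96 with miR-132. Control replicate 1 was the highest and control replicate 4 the lowest of all 10 arrays. The means were 11.61 ± 1.34 and 11.11 ± 0.49 (SD, n = 5 each). The difference was -0.50 ± 0.59 (SE, 95% confidence interval -1.81 to 0.81, limma's adjusted p of 0.838) and was 0.02 without control replicate 1. Of 10 melanocyte markers, 7 lay below the level filter, Mlana, Pmel and Tyr among them, and the 3 tested (Dct, Tyrp1 and Kit) averaged 4.62 to 4.90 on control arrays and 4.36 to 4.98 on miR-132 arrays.

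**Figure D2:**
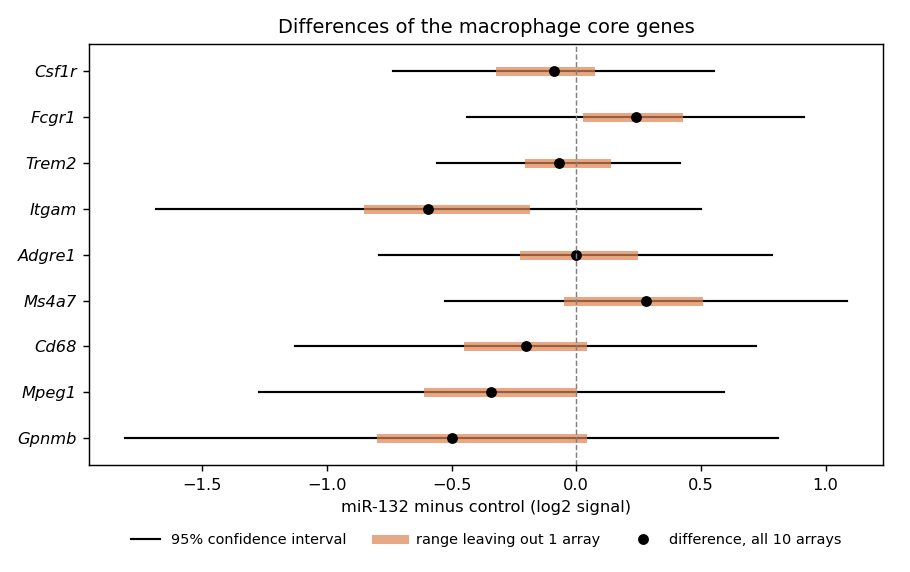
Difference of each macrophage gene, miR-132 minus control in log2 signal, as points with limma's 95% confidence interval in black and the range over the 10 fits that leave out 1 array in orange. Each interval includes 0, and the widest belong to Gpnmb (-1.81 to 0.81) and Itgam (-1.69 to 0.50).

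The genes differed in how widely mice of 1 group spread. Ranked among all genes tested by within-group SD, the 9 stood between the 78.2th percentile (Trem2, SD of 0.38) and the 98.6th percentile (Gpnmb, SD of 1.01), where the median gene had an SD of 0.22. For 7 of the 9, all but Csf1r and Fcgr1, the SD was larger in controls than with miR-132. Over all genes tested the median SD was 0.17 in controls and 0.23 with miR-132, and the share of genes was not counted. The control SDs include single extreme arrays, replicate 1 for Gpnmb (13.70) and Mpeg1 (12.42). Replicate 2 was such an array for Ms4a7 (7.12) and replicate 4 for Itgam (11.95). No test of that difference in spread was made.

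Genes around these receptors were taken from lists of known partners. Of 20 genes in a list of Csf1r ligands and myeloid transcription factors, 15 were tested, and 0 passed limma's adjusted threshold. In that list 11 averaged lower and 4 higher (median -0.08), and 3 lower and 0 higher had an unadjusted p under 0.05. Over all 17635 genes tested, 9619 averaged lower and 8016 higher, and 5.61% were lower and 2.47% higher at that p. The same shares stand beside the lists that follow. Klf4, a transcription factor of monocytes and of keratinocytes, averaged 10.07 ± 0.22 in controls and 9.24 ± 0.50 with miR-132, a difference of -0.83 ± 0.24 (SE, n = 5 per group, limma's adjusted p of 0.596). Cebpb, a factor of inflammatory myeloid genes, differed by -0.36 ± 0.14 and Tfe3, a regulator of lysosomal genes, by -0.19 ± 0.08 (SE, both at limma's adjusted p of 0.596). For these 3 genes the 5 miR-132 arrays were each under the control mean. They were named for the smallest unadjusted p of their list, which favours such a pattern, so it is no separate support. Genes whose differences are given from the lists below were named in the same way, unless stated otherwise. The ligands of Csf1r were picked for their role after values were seen. Csf1 differed by -0.00800 ± 0.15 and Il34 by -0.16 ± 0.10 (SE, limma's adjusted p of 0.999 and 0.687). The features of Spi1 and Zeb2 carry further gene names, so both were not analysed here.

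In the list of Trem2 signalling and lipid-handling genes, 22 of 24 were tested, 16 averaged lower and 6 higher (median -0.08), and 0 passed. After quantile normalization 12 were higher and 10 lower. Cd9, a tetraspanin of many cell types, differed by -0.54 ± 0.19, Plin2, a coat protein of lipid droplets, by -0.57 ± 0.21, and Syk, the kinase that carries Tyrobp and Fc receptor signals, by -0.43 ± 0.19 (SE, n = 5 per group, limma's adjusted p of 0.596, 0.596 and 0.617). Syk measured 7.82 on control replicate 4, the array with the most Itgam, and 6.89 to 7.06 on the other controls, and without that array its difference was -0.27. Tyrobp itself, named after values were seen, differed by -0.12 ± 0.37 (SE, limma's adjusted p of 0.954).

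Of 14 integrin and Fc receptor partner genes, 12 were tested, 8 averaged lower and 4 higher (median -0.12), and 0 passed. Without control replicate 4, 5 were lower and 7 higher. Itgb2, the beta chain that pairs with Itgam, differed by -0.43 ± 0.22, and the ligand Icam1 by -0.31 ± 0.11 (SE, limma's adjusted p of 0.653 and 0.596). Fcer1g, the signalling chain of Fcgr1, differed by -0.37 ± 0.31 (SE, limma's adjusted p of 0.779).

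Further macrophage and monocyte markers were read as a list. Of 40 listed, 39 were tested, 27 averaged higher with miR-132 and 12 lower (median 0.13), 1 higher and 0 lower had an unadjusted p under 0.05, and 0 passed. Without miR-132 replicate 4, 18 were higher and 21 lower, and with the hybridisation spike-ins as a covariate 16 were higher and 23 lower. Cd209f, a C-type lectin of resident macrophages, averaged 6.84 ± 0.38 in controls and 7.43 ± 0.22 with miR-132, a difference of 0.59 ± 0.19 (SE, n = 5 per group, limma's adjusted p of 0.596). Marco, a scavenger receptor, differed by 0.44 ± 0.22, and Slc11a1, a metal transporter of phagosomes, by -0.37 ± 0.20 (SE, limma's adjusted p of 0.641 and 0.656).

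The 9 macrophage genes varied together from mouse to mouse. Of their 36 pairs, 35 had a Pearson correlation above 0 over the 10 arrays (97.2%, against 54.3% of all pairs of tested genes). The median r was 0.59 over the 36 pairs and 0.05 over all pairs of tested genes. An r above 0.5 was reached by 20 pairs (55.6%, against 12.5% of all pairs). These shares are a description, since genes on the same arrays are not independent and dim genes carry more noise. With the mean of each treatment removed the median r was 0.63, and without control replicate 1 it was 0.34, with 32 pairs above 0. Within 1 treatment group there are only 5 mice, too few for a correlation of their own.

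**Figure D3:**
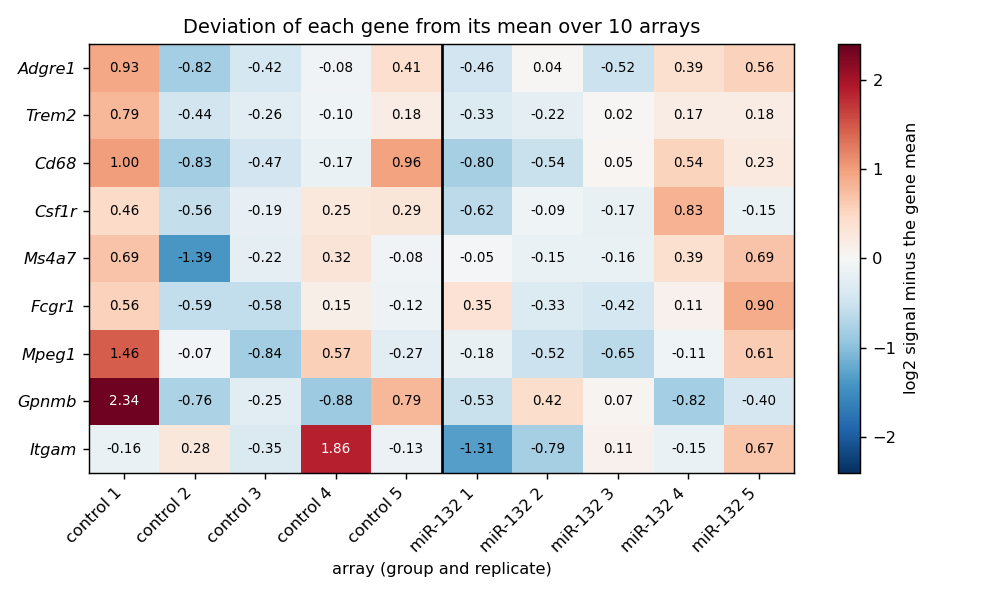
Log2 signal of each macrophage gene (rows) on each array (columns) minus that gene's mean over the 10 arrays, from blue (lower) to red (higher). Control replicate 1 is highest for 5 genes outright, control replicate 2 lowest for 5, and Itgam peaks on control replicate 4 (11.95).

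By array, the mean of the 9 genes ran from 9.28 to 10.75 in controls (median 10.07) and from 9.42 to 10.22 with miR-132 (median 9.67). Control replicate 1 was the highest array and control replicate 2 the lowest of all 10, so the control mice enclosed the miR-132 mice. On control replicate 1, 8 of the 9 genes exceeded their own mean, and on control replicates 2 and 3 only 1 and 0 did. The poly-A spike-ins, added before labelling, averaged 7.07 on control replicate 1, the lowest of all arrays, and 7.17 to 7.94 on the others. Over the 10 arrays Gpnmb had r = -0.72 with them (permutation p of 0.0166, adjusted p of 0.448 over 27 technical relations, rho = -0.43, p of 0.217, r = -0.40 without the 2 farthest arrays), and the other 8 genes had r between -0.55 (Adgre1) and -0.05 (Fcgr1). Their part in the co-variation was not tested. The neutrophil markers did not share the order of the 9 genes, as their mean was 9.85 on control replicate 1, the lowest control.

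Of the 36 pairs, 6 passed an adjusted p of 0.05 over the pairs by both Pearson's r and Spearman's rho in two-sided permutation tests with 100000 resamples. Cd68 and Trem2 varied most closely, with r = 0.91 (permutation p of 1e-05, the smallest these resamples can give, adjusted p of 0.00036) and rho = 0.97 (p of 0.00007, adjusted p of 0.00216). Without the 2 arrays farthest from the Cd68 median their r was 0.97. Adgre1 varied with Trem2 (r = 0.88, permutation p of 0.00074, adjusted p of 0.0133, rho = 0.86, p of 0.0024), with Cd68 (r = 0.84, p of 0.00332, adjusted p of 0.0273, rho = 0.81, p of 0.00742) and with Ms4a7 (r = 0.81, p of 0.00285, adjusted p of 0.0273, rho = 0.80, p of 0.00737). Csf1r varied with Cd68 (r = 0.80, permutation p of 0.0061, adjusted p of 0.0366, rho = 0.82, p of 0.00592). Ms4a7 varied with Fcgr1 (r = 0.79, permutation p of 0.00379, adjusted p of 0.0273, rho = 0.95, p of 0.00012). The adjusted p by rho of the 5 pairs after the leading one was 0.00216 to 0.0445. Without the 2 arrays farthest from the median of the gene named first, these 5 pairs had r of 0.76, 0.71, 0.68, 0.76 and 0.81 in the order given. Without control replicate 1 all 6 pairs lay between 0.76 and 0.94.

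Itgam and Gpnmb had the lowest median r to the other 8 genes, at 0.16 and 0.38. The highest r of Itgam was 0.40, with Mpeg1. Itgam and Gpnmb formed the single negative pair (r = -0.27, permutation p of 0.41, adjusted p of 0.527, rho = -0.39, p of 0.263, r = -0.31 without the 2 farthest arrays). Gpnmb reached r = 0.74 with Trem2 (permutation p of 0.0243, adjusted p of 0.075, rho = 0.47, p of 0.175), and without the 2 farthest arrays, control replicates 1 and 2, this was 0.11. Without control replicate 1 alone it was 0.26, the lowest r of this pair when any 1 array was left out. With Mpeg1, Gpnmb had r = 0.43 over 10 arrays and -0.50 without control replicate 1.

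**Figure D4:**
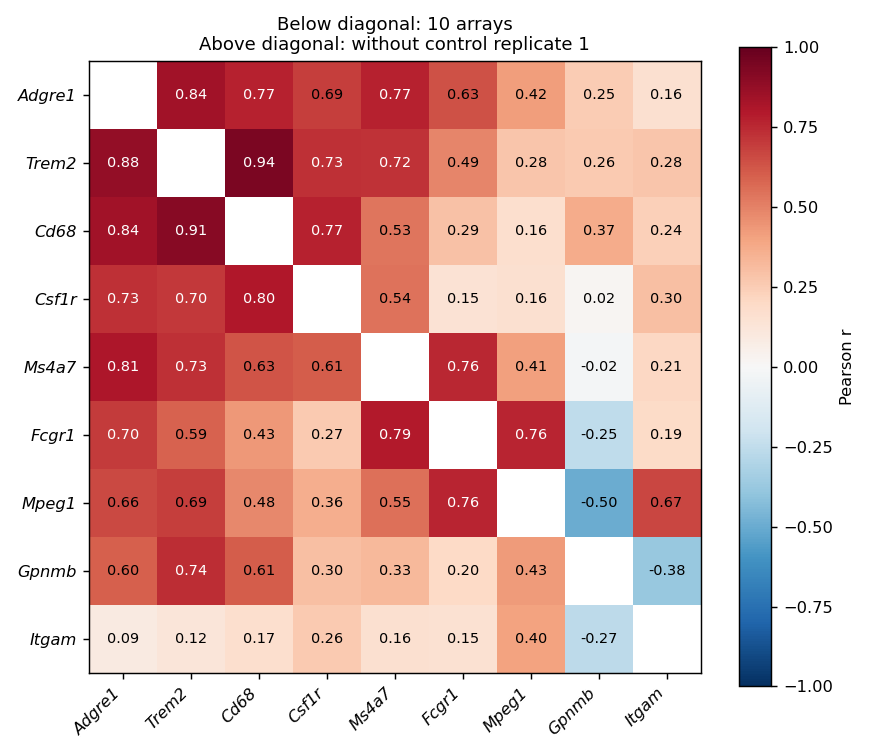
Pearson correlation of each pair of macrophage genes, over all 10 arrays below the diagonal and without control replicate 1 above it, from blue (negative) to red (positive). Adgre1, Trem2, Cd68, Csf1r and Ms4a7 keep r of at least 0.53 with each other without that array, while Gpnmb falls to between -0.50 and 0.37.

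Promoter sequences are shown for the pair that varied most closely, Cd68 and Trem2, and for the pair with the negative correlation, Itgam and Gpnmb. They run 5′ to 3′ from 250 bases before to 50 bases after the RefSeq start site on the gene's strand, in build GRCm38.p6. Capitals mark GAGGAA or its reverse complement TTCCTC, the purine-rich core that ETS factors such as the macrophage regulator encoded by Spi1 bind. Promoter windows were counted for 7 of the 9 genes. Adgre1 had no RefSeq window at hand, and the chromosome that holds Csf1r was left out of the counts of these genes.
Cd68 (chr11:69666121-69666420, - strand): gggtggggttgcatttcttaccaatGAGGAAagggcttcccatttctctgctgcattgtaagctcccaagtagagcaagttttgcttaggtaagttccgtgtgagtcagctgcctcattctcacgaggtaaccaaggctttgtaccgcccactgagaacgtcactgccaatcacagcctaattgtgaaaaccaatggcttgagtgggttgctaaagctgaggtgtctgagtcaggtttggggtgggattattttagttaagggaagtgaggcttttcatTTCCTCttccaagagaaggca
Trem2 (chr17:48346151-48346450, + strand): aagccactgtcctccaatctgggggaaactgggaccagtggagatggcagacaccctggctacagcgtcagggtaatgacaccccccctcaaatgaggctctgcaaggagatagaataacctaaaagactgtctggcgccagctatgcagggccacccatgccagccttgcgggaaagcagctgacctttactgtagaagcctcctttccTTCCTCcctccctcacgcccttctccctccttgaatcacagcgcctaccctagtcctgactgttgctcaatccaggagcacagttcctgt
Itgam (chr7:128062390-128062689, + strand): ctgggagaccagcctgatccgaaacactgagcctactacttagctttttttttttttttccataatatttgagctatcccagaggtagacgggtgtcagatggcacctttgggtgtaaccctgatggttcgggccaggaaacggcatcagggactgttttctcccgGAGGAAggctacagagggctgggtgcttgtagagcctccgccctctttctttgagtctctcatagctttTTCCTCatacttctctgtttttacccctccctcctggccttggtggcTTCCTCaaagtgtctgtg
Gpnmb (chr6:49036268-49036567, + strand): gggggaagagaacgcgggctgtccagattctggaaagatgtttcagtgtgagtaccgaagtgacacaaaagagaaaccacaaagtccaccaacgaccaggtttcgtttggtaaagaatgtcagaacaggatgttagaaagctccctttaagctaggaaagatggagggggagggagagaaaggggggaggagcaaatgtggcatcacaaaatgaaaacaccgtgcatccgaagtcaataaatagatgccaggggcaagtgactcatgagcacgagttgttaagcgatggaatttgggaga
On either strand, GAGGAA occurred 2 times in the Cd68 window, 1 time in Trem2, 3 times in Itgam and 0 times in Gpnmb. The Ms4a7 window with the motif and the Fcgr1 window held it 1 time each and the Mpeg1 window 0 times, so 5 of 7 genes had it, beside 28.3% of 32851 promoter windows of this length. TGAGTCA, the AP-1 core, or its reverse complement TGACTCA occurred in 2 of the 7 (Cd68 and Gpnmb), beside 5.20% of all windows. Counted from the start site, it began at -149 and -24 in Cd68 and at 9 in Gpnmb. CACGTG, an E-box that lysosomal gene regulators of the Tfe3 family bind, occurred in 0 of the 7 (7.15% of all windows), and its variant CATGTG in Ms4a7 and Fcgr1 (14.2% of all windows). None of these motifs overlapped another in the 4 printed windows. Ms4a7 has 2 annotated start sites, which were counted as 1 gene.

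The tested genes most like the mean of the 9 over the 10 arrays were named by Pearson's r, as a description. Picking the highest r among very many genes favours high values, and these r were not tested. Lpxn, an adaptor of the adhesion structures of blood cells, had r = 0.96, and Tnfrsf11a, the receptor through which osteoclast precursors are induced, 0.95. Cd84, a leukocyte adhesion receptor, had 0.94, Dera, an enzyme of deoxyribose breakdown, 0.93, and Tbxas1, the thromboxane synthase, 0.93. Slc29a3, a lysosomal nucleoside transporter, C3ar1, the receptor for complement C3a, and Apobec1, an RNA-editing enzyme, each had 0.91, Gas2l3 0.90 and Ube2q1 0.88. Without control replicate 1 the 10 lay between 0.81 and 0.92. Their own differences between treatments ranged from -0.14 to 0.04, with limma's adjusted p from 0.802 to 1.

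Each member's closest genes differed. They were picked for the highest r among very many tested genes on few arrays, and such a choice favours high values. How high r would be for unrelated genes picked in this way was not tested. The functions given describe the genes and are no separate support for a link to the member. Adgre1 was closest to Tbxas1 (r = 0.95) and Tlr8, a sensor of RNA in endosomes (0.90). Csf1r was closest to Necap2 (0.96), an endocytosis protein, and Unc93b1 (0.95), the chaperone of nucleic acid sensing toll-like receptors. Cd68 was closest to Emp3 (0.92) and Grn, the lysosomal protein progranulin (0.92). Trem2 was closest to Dera and Nceh1, a cholesterol ester hydrolase of macrophages (0.93 each). Gpnmb was closest to Atp6v0d2, a proton pump subunit of osteoclasts and lipid-handling macrophages (0.93), and Abcd4 (0.92), a lysosomal transporter. Itgam was closest to Aim2, a sensor of cytosolic DNA (0.97), and B4galt3 (0.95), and its nearest member, Mpeg1, ranked 2479th. Mpeg1 was closest to Imp3 and H2-DMb2 (0.94 each), Ms4a7 to Ggact (0.91) and Spdl1 (0.90), and Fcgr1 to Snai2 (0.94) and Gdpd5 (0.87).

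Against the mean of each marker list, 135 relations were computed and 0 passed adjustment. Only some of them are named here. Adgre1 and the other macrophage and monocyte markers had r = 0.75 (permutation p of 0.0138, adjusted p of 0.404) and rho = 0.77 (p of 0.0125, adjusted p of 0.454), with r = 0.79 without the 2 farthest arrays. With the same list the remaining members had r from 0.03 (Gpnmb) to 0.75 (Csf1r), with Itgam at 0.18 and Mpeg1 at 0.37. Adgre1 also had r = 0.64 with the dendritic and Langerhans cell markers (permutation p of 0.0419, adjusted p of 0.404, rho = 0.53). With that list the members had r from -0.10 (Itgam) to 0.67 (Mpeg1). Csf1r and the integrin and Fc receptor partners had r = 0.88 (permutation p of 0.00077, adjusted p of 0.104) and rho = 0.73 (p of 0.0195, adjusted p of 0.454), with r = 0.76 without the 2 farthest arrays. Itgam and the neutrophil markers had r = 0.66 (permutation p of 0.0388, adjusted p of 0.404) and rho = 0.64 (p of 0.0544, adjusted p of 0.454), with r = 0.41 without the 2 farthest arrays, miR-132 replicate 1 and control replicate 4. Adgre1 and the neutrophil markers had r = -0.22. Against adipocyte markers Itgam had r = -0.74 (permutation p of 0.0174, adjusted p of 0.404, rho = -0.60, p of 0.0744), and r = -0.46 without the same 2 arrays.

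**Figure D5:**
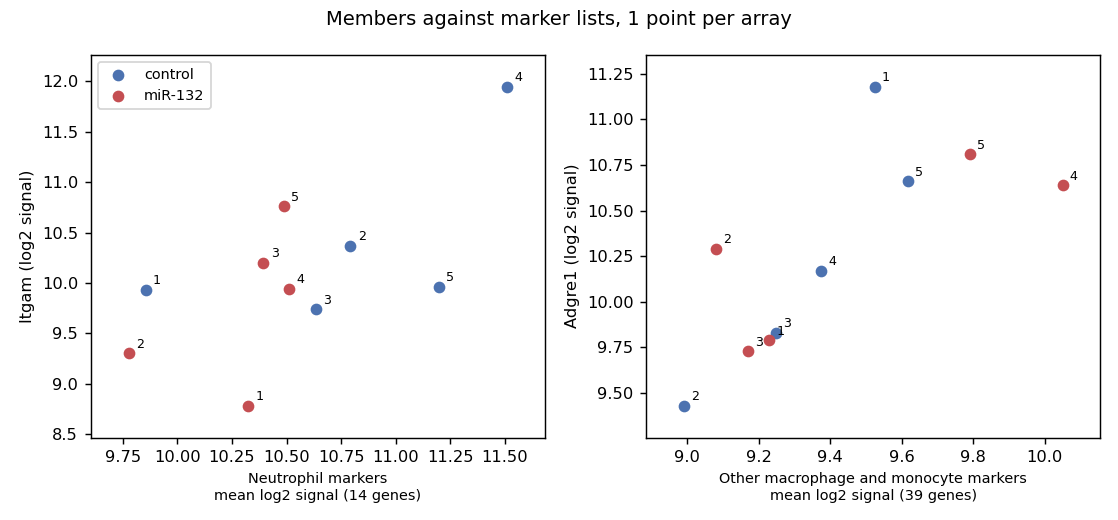
Left, log2 signal of Itgam against the mean of 14 neutrophil markers; right, Adgre1 against the mean of 39 other macrophage and monocyte markers, 1 point per array, numbered by replicate and coloured by treatment. Control replicate 4 is at the top right on the left (11.95 and 11.51), and control replicate 1 is the highest point on the right (Adgre1 at 11.18).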

How the data were processed

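Per the submitters' processing notes, the authors processed the arrays with Affymetrix Expression Console 1.4 and RMA. The deposited values are taken as log2 signal from their range and their limit of 19.93, the log2 of 1000000; the labels do not state the scale, and no source used here gives the genome build of the features. All 10 value columns matched a sample, and 0 pairs of arrays were identical. Of 72688 features, the platform annotation gave 31216 a single gene, 1534 several and 39938 none; 874 symbols were updated through gene identifiers with the RefSeq table of GRCm38.p6. Where a gene had several features (364 genes), its brightest was kept. Genes whose mean over all arrays exceeded 4.17 (17635) were tested with limma 3.58.1 in R 4.3.3 (lmFit, eBayes with trend, two-sided, Benjamini-Hochberg, threshold 0.05), on all 10 arrays without covariates. The number of arrays limits the precision. Correlations used numpy 2.4.6 and scipy 1.17.1 in Python 3.11.15, with permutation p-values. The procedure was tested on simulated data with known answers.

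The 9 genes and all lists were chosen with earlier results of these data known. The rule for named genes took the 9, the 3 genes of each list with the smallest unadjusted p, the 10 tested genes most like the mean of the 9, and the 2 most like each member, members included; predicted genes and small RNAs were left out of the last 2 groups. As a departure from it, lists of osteoclast, lymphoid, mast and non-immune cells are given by counts. Csf1, Il34 and Tyrobp were named outside it. Alternatives were quantile normalization, median centring, no or a stricter level filter, no trend, array weights, the mean over features, the replicate block, the hybridisation spike-ins as a covariate, leaving out each array, and leaving out miR-132 replicates 2 and 5. The correlations without control replicate 1 for single pairs and the alternatives for listed genes were added after seeing the data. The labels call the samples different mice; replicate numbers did not pair the groups.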

Additional observations from a re-analysis of the deposited data

Results flagged for a closer look

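Among 68 groups of 5 arrays examined for a single array far from the other 4, 2 stood out by Dixon's criterion at a critical value of 0.71, where chance alone gives about 1 in 20. The flagged groups are thus no more than that share, and they are given as a description. Itgam on control replicate 4 measured 11.95 against 9.74 to 10.37 on the other controls, and its gap to the nearest control took up 0.715 of the group's range. Syk on the same array measured 7.82 against 6.89 to 7.06, a gap of 0.817 of the range. The mean of the neutrophil markers was also highest on this array (11.51), and its part in these values was not tested.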

How the results depend on the processing

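Under the 20 alternatives, 0 of the 9 macrophage genes passed limma's adjusted threshold, and 0 had an unadjusted p under 0.05. Over all genes, 0 passed in every fit except that without miR-132 replicate 3, where 52 did (leaving out single arrays gave 0 to 52). The median difference of the 9 lay between -0.31, when miR-132 replicate 4 was left out, and 0.02, when control replicate 1 was. The median r of the 36 pairs was 0.34 without control replicate 1 and at most 0.62 when other single arrays were left out, and was 0.46 with Spearman's rho. Of 180 recomputed differences of single members 15 changed sign. After quantile normalization Adgre1 was at 0.18, Csf1r at 0.078, Csf1 at 0.083 and Tyrobp at 0.069, and with array weights Adgre1 was at 0.067, Csf1 at 0.035 and Tyrobp at 0.073. Leaving out single arrays gave -0.21 to 0.23 for Adgre1, -0.31 to 0.055 for Csf1r, -0.43 to 0.024 for Cd68, -0.034 to 0.49 for Ms4a7, -0.19 to 0.12 for Trem2 and -0.78 to 0.023 for Gpnmb; Mpeg1, Itgam and Fcgr1 kept their sign throughout. With the hybridisation spike-ins as a covariate Marco was at -0.080, H2-Aa at 0.13, Dct at 0.13, Tyrp1 at 0.090 and Kit at 0.077, and among the 9 genes Itgam went from -0.59 to -1.09, Cd68 from -0.20 to -0.63, Csf1r from -0.09 to -0.20, Trem2 from -0.07 to -0.23 and Gpnmb from -0.50 to -0.28. These spike-ins were higher on miR-132 replicates 3, 4 and 5 than on any control array, so spike-in level and treatment cannot be fully told apart in that fit. The SE rose for all 9 genes, for Itgam from 0.49 to 0.69. Leaving out single arrays gave -0.21 to 0.048 for Dct, -0.081 to 0.00050 for Kit, -0.076 to 0.10 for Csf1 and -0.35 to 0.089 for Tyrobp. The cause of these changes was not tested. With the replicate number as a block, 0 genes and 0 members passed, and 467 genes were higher and 806 lower at an unadjusted p under 0.05. Deviations of equally numbered arrays correlated between -0.03 and 0.16, so the numbers were not taken as pairs. Each 95% confidence interval of a member's difference included 0.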

Other observations

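Markers of other cells that share genes with macrophages were also read. Of 8 osteoclast markers, 5 were tested and averaged lower with miR-132 (3 higher and 2 lower after quantile normalization), and the fusion genes Ocstamp and Dcstamp and the hormone receptor Calcr lay below the level filter. Of 15 dendritic and Langerhans cell markers, 9 were tested, 6 lower and 3 higher (7 higher and 2 lower with the hybridisation spike-ins as a covariate). Cd209a, a lectin of monocyte-derived dendritic cells, had a control mean of 5.18 ± 0.29 and a miR-132 mean of 5.62 ± 0.20 (SD, n = 5 each), a difference of 0.44 ± 0.15 (SE, limma's adjusted p of 0.596). All 5 of its miR-132 arrays were above the control mean, but it was named for its small unadjusted p, which favours such a pattern. H2-Aa, an antigen-presenting class II chain, differed by -0.20 ± 0.21 and Ciita, the activator of class II genes, by -0.16 ± 0.11 (SE, limma's adjusted p of 0.810 and 0.740). Of 6 B and plasma cell markers, 5 were measured and 0 lay above the level filter. T and NK cell markers had 4 higher and 1 lower of 5 tested, mast cell markers 7 and 1 of 8, keratinocyte markers 1 and 8 of 9, fibroblast markers 4 and 5 of 9, endothelial markers 2 and 5 of 7, adipocyte markers 7 and 0 of 7 and skeletal muscle markers 1 and 7 of 8. Without miR-132 replicate 1 the adipocyte markers were 4 higher and 3 lower (median 0.09 in place of 0.39), and with the hybridisation spike-ins as a covariate their median was 1.89. With that covariate the skeletal muscle markers were 5 higher and 3 lower (median 0.07 in place of -0.61). The spike-ins differed between the groups, so spike-in level and treatment cannot be fully told apart in these medians. Mast cell markers were 4 and 4 without miR-132 replicate 4, fibroblast markers 5 and 4 after quantile normalization, and dendritic cell markers 5 and 4 without control replicate 1. In each of these lists 0 genes passed limma's adjusted threshold, and at an unadjusted p under 0.05 3 keratinocyte genes, 2 osteoclast genes and 1 mast cell gene were lower and 1 dendritic cell gene, Cd209a, was higher, beside 5.61% lower and 2.47% higher of all genes. Of the 2 osteoclast genes, 1 is Mmp9, which is also in the neutrophil list.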
